A study of Homo sapiens with 4 samples.

Results

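The lysosomal hydrolases, membrane proteins and sorting proteins are the genes that the authors' table annotates with the KEGG lysosome pathway, without the subunits of the vacuolar proton pump (symbols starting with ATP6, and TCIRG1) and without NPC1, NPC2, SMPD1, ASAH1, PPT1 and PPT2. Annotation and these exclusions defined them: 128 rows carried the pathway, 16 were set aside, and 112 of the 28973 genes in the table remained. The group was chosen with earlier results of these data known. They comprise 17 proteases, 16 glycosidases, 8 sulfatases and sulfatase-related genes, 9 other hydrolases and activator proteins, 22 membrane proteins, 26 sorting adaptors, 6 sorting receptors and tagging enzymes, and 8 genes outside these classes. RNA of TOV-112D, a human line established from ovarian cancer, was sequenced in 4 libraries, 2 labelled PA for palmitic acid, a saturated fatty acid, and 2 labelled BSA for bovine serum albumin as the negative control. The labels give 200 µM and 24 h for both groups, and the growth medium was RPMI-1640 with serum. The series' title concerns the regulation of ovarian cancer cells by palmitic acid.

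Lysosomes are acidic organelles in which hydrolases break down proteins, glycans, lipids and nucleic acids delivered by endocytosis and autophagy. Most soluble hydrolases receive a mannose-6-phosphate tag in the Golgi, are bound there by mannose-6-phosphate receptors, and leave in carriers built by clathrin and adaptor complexes. Many genes of this organelle carry an E-box-like element in their promoters, called the CLEAR element, which is bound by TFEB, TFE3 and related factors.

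The libraries held 28657038 and 31695944 counts (BSA replicates 1 and 2) and 29662410 and 23722074 counts (PA replicates 1 and 2). Other labels disagree with palmitic acid as the treatment. SPTLC2 is named as knocked down in the description of the PA libraries, and the protocol text shared by all 4 samples also lists shCON and shZDHHC15 cells. Neither gene was lower in the PA libraries. SPTLC2 had 1524 and 1080 counts under BSA and 2194 and 1740 under PA, and ZDHHC15 had 291 and 225 under BSA and 190083 and 167798 under PA. Groups follow title and treatment here, so every direction is that of the libraries labelled PA. Every comparison below is thus also between libraries with low and with high ZDHHC15 counts. The part of this difference in the members' values was not tested. The BSA libraries differed from each other more than the PA libraries did (SD of the log2 ratio between replicates over genes 0.88 against 0.27). Separate cultures are not mentioned in the labels. All p-values below are therefore relative to a spread among libraries that could be technical. Of the 8 ovarian and epithelial markers, keratin genes were high, whereas EPCAM, CDH1 and WT1 stayed under 1 CPM in every library. KRT8 had 936 and 1115 CPM under BSA and 1584 and 1791 CPM under PA, and MUC16 had 15.3 and 12.1 against 43.7 and 41.1 CPM. Both were past 1.5-fold higher against each BSA library, and PAX8 had 2.61 and 5.36 against 6.47 and 7.79 CPM. CPM are counts scaled to library size after TMM normalisation (edgeR's cpm).

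The lysosomal genes as a group stood higher in the PA libraries. They took 0.636% and 0.582% of all counts in the BSA libraries, against 1.12% and 1.11% in the PA libraries. PSAP alone gave 8.6% and 8.42% of the group's counts under BSA and 22.1% and 22.2% under PA. Without it the group's share of all counts was still 0.581% and 0.533% against 0.872% and 0.861%. With bulk RNA, more RNA per cell and more cells of an expressing kind cannot be told apart.

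Of the 112 genes, 106 passed the filter on low counts and were tested, and none passed edgeR's quasi-likelihood test with Benjamini-Hochberg adjustment over all 17449 genes (0 higher and 0 lower, background 0% in each direction). The smallest adjusted p among them was 0.0589. By the unadjusted p, at a threshold of 0.05, 41 were higher (38.7% of those tested, background 13.1%) and 4 lower (3.77%, background 11.2%). No statement below on a gene's direction therefore rests on a call by this test. With 2 libraries a group, the smallest two-sided p of an exact permutation test is 0.333. The result depended on the BSA libraries: 66 members were called higher and 12 lower without BSA replicate 1 (background 25.3% and 22.6%), and 61 and 16 without BSA replicate 2 (background 27.3% and 30%). In these fits the lone BSA library is assumed to vary as the PA libraries do. DESeq2 called 25 higher and 1 lower (background 6.06% and 4.42%). After removal of a trend with transcript length and GC content, edgeR called 28 higher and 1 lower (background 5.46% and 2.58%). The lower gene was HYAL3 in both. With no filter on low counts 21 were called higher and 1 lower (background 3.06% and 1.66%), and with a replicate block 13 and 0 (background 2.3% and 0.774%). DESeq2, the fit with the trend removed and the fit with a replicate block all called 13 members, among them CTSB, CTSD, CTSL, LGMN, GLB1, NEU1, SGSH, PLA2G15, PSAP, LAMP1, LAMP3 and IGF2R. The share of all genes called by all of these fits was not computed. They use the same libraries, and libraries of the same replicate number are not shown to be paired.

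Because the BSA libraries differed, the mean of the PA libraries was set against each of them singly, with 0.5 CPM added to every value. A gene is described as higher or lower in both settings where the ratio passed 1.5-fold the same way against BSA replicate 1 and against BSA replicate 2. That held for 38 of the 106 tested members on the higher side (35.8%, background 12.5%) and for 2 on the lower side (1.89%, background 9.14%), HYAL3 among them. At 2-fold there were 23 higher (background 5.51%) and 1 lower (background 2.83%). Against BSA replicate 2 alone, 54 members were past 1.5-fold higher and 7 lower (background 20.6% and 18.8%), and against BSA replicate 1 alone 51 and 15 (background 22.2% and 27.4%). In 66 members both PA libraries lay above both BSA libraries (62.3%, background 28.9%), and in 13 both lay below (background 29.1%, and 58% for either direction). The median log2 fold change of the members was 0.59, against -0.12 over all genes tested. Against each BSA library singly the median was 0.54 for replicate 1 and 0.66 for replicate 2, where all genes had -0.04 and 0.00.

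**Figure D1:**
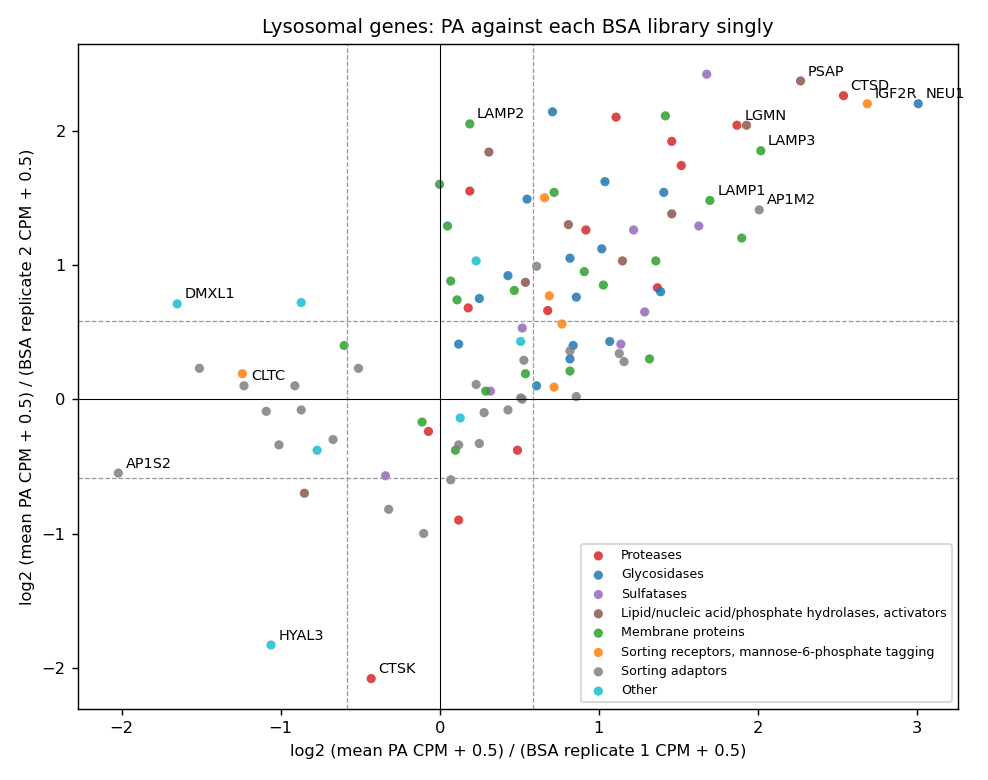
Each point is 1 of the 106 tested lysosomal genes, placed by the log2 ratio of the PA mean to BSA replicate 1 (x axis) and to BSA replicate 2 (y axis), with colours for the classes and dashed lines at 1.5-fold. The 38 genes in the upper right corner are higher in both settings, and the 2 in the lower left corner, HYAL3 among them, are lower in both settings.

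The classes differed in these medians. Proteases had a median log2 fold change of 0.92, glycosidases of 0.89, sulfatases of 0.86, the other hydrolases and activators of 1.26, membrane proteins of 0.63, receptors and tagging enzymes of 0.70, and sorting adaptors of -0.10, close to all genes. The adaptor median was 0.02 without BSA replicate 1 and 0.19 without BSA replicate 2, so its sign depended on these libraries. Against BSA replicates 1 and 2 singly the medians were 0.80 and 1.05 for proteases, 0.83 and 0.86 for glycosidases, 0.54 and 0.88 for membrane proteins, and 0.17 and 0.00 for sorting adaptors. Higher in both settings were 8 of 14 tested proteases, 8 of 16 glycosidases, 8 of 21 membrane proteins and 2 of 26 sorting adaptors. Over all genes tested the share was 12.5%. These are descriptions of each class, and the difference between classes was not tested.

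**Figure D2:**
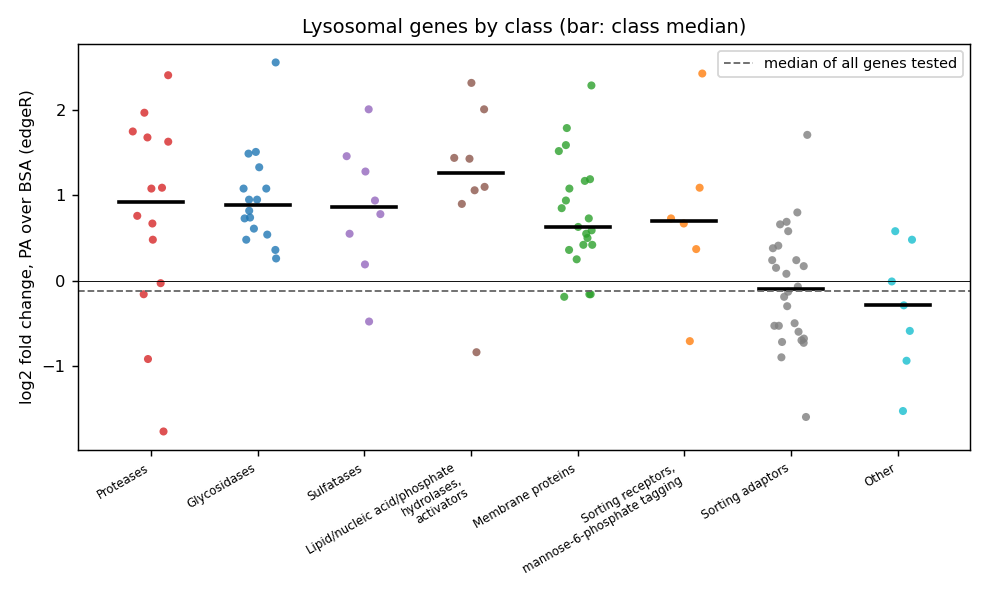
The edgeR log2 fold change of PA over BSA (y axis) is drawn for each tested lysosomal gene in 8 classes (x axis), with the class median as a bar and the median of all genes tested, -0.12, as a dashed line. The hydrolase classes have medians from 0.86 to 1.26, whereas the sorting adaptors have -0.10.

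Among the proteases, CTSD, the main aspartic endopeptidase of the lysosome, had the largest difference. It stood at 32.9 and 39.9 CPM in the BSA libraries and 182 and 205 CPM in the PA libraries. Both PA libraries lay far above both BSA libraries (log2 fold change 2.41 ± 0.23 SE, edgeR adjusted p = 0.0589; chromosome 11, 1752752 to 1764573, minus strand, hg38). LGMN, an asparaginyl endopeptidase that trims other lysosomal proteases to their mature forms, stood at 37.2 and 33.2 CPM under BSA against 132 and 144 CPM under PA (log2 fold change 1.97 ± 0.21 SE, edgeR adjusted p = 0.0589). The cysteine endopeptidases CTSB and CTSL lay on the same side. CTSB had 111 and 95.5 CPM under BSA against 311 and 327 CPM under PA (log2 fold change 1.63 ± 0.21 SE, edgeR adjusted p = 0.0612), and CTSL had 111 and 80.8 CPM under BSA against 370.3 and 246 CPM under PA (log2 fold change 1.68 ± 0.31 SE, edgeR adjusted p = 0.0812). The PA libraries of CTSL were spread more widely than those of CTSB, without reaching the BSA values. CTSV, a close relative of CTSL whose reads could in part be shared with it, rests on few reads, at 2.61 and 1.07 CPM under BSA against 5.67 and 6.74 CPM under PA.

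Further proteases were higher by less. CTSA, a carboxypeptidase that protects NEU1 and GLB1 in a complex, stood at 120.3 and 175 CPM under BSA against 299.8 and 323 CPM under PA. TPP1, a tripeptidyl peptidase that is deficient in a form of neuronal ceroid lipofuscinosis, had 53.5 and 42.1 CPM under BSA against 105 and 97.9 CPM under PA (log2 fold change 1.09 ± 0.23 SE, edgeR adjusted p = 0.0938). CTSZ, a carboxypeptidase, had 235 and 237 CPM under BSA against 368 and 383 CPM under PA, with the replicates of each group close together. In all 3 genes the groups did not overlap (background 28.9% with PA higher). CTSC, a dipeptidyl peptidase that activates serine proteases of immune cells, depended on the BSA library, at 8.87 and 3.14 CPM under BSA against 10.01 and 10.4 CPM under PA. CTSF showed little difference (30.1 and 33.9 CPM under BSA against 28.4 and 28.8 CPM under PA), and CTSK, a collagen-degrading protease best known from osteoclasts, lay on the lower side at 2.18 and 7.93 CPM under BSA against 1.24 and 1.74 CPM under PA, with the BSA libraries far apart. CTSS had 2.88 and 1.88 CPM under BSA against 2.85 and 3.78 CPM under PA, with overlapping groups. CTSH stayed under 1.2 CPM in every library. CTSE, CTSO and NAPSA did not pass the filter on low counts, and CTSW passed but stayed under 1 CPM throughout.

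Glycosidases remove sugars from glycoproteins, glycolipids and glycosaminoglycans. The PA mean was above each BSA library in 16 of 16 of these genes (background 32.9%). In 15 both PA libraries lay above both BSA libraries (background 28.9%). The exception was IDUA, an iduronidase, with 3.95 and 5.802 CPM under BSA against 6.84 and 5.698 CPM under PA. Related genes outside this class list, FUCA2, HYAL2 and HYAL3, are given further on, and HYAL3 went the other way. NEU1, the lysosomal sialidase, had the largest difference of all 106 tested members. It stood at 31.7 and 55.8 CPM in the BSA libraries and 248 and 269 CPM in the PA libraries, and the PA mean was 8.03-fold and 4.596-fold above BSA replicates 1 and 2 (log2 fold change 2.56 ± 0.34 SE, edgeR adjusted p = 0.0624; chromosome 6, 31857659 to 31862905, minus strand). GLB1, the beta-galactosidase that shares a complex with NEU1 and CTSA, had 34.7 and 31.7 CPM under BSA against 87.1 and 98.8 CPM under PA (log2 fold change 1.49 ± 0.22 SE, edgeR adjusted p = 0.0689). TMPPE, a gene that overlaps GLB1 on the same strand, had 87 and 92 counts under BSA and 124 and 112 under PA, few beside those of GLB1 (1038 and 1010 counts under BSA and 2534 and 2272 under PA).

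GAA, which degrades glycogen, stood at 55.1 and 51.3 CPM under BSA against 103 and 122 CPM under PA (log2 fold change 1.08 ± 0.22 SE, edgeR adjusted p = 0.087). The mannosidase genes MANBA and MAN2B1 had 16.03 and 10.5 CPM under BSA against 32.4 and 34.5 CPM under PA and 25.6 and 38.8 CPM under BSA against 65.4 and 70.5 CPM under PA. A gene with the identifier ENSG00000269242 overlaps MAN2B1 on the same strand, with 1318 and 2414 counts under BSA and 1191 and 900 under PA. FUCA1, a fucosidase, was low, at 2.38 and 0.565 CPM under BSA against 3.96 and 4.44 CPM under PA, so its ratio rests on few reads. HEXA, which encodes the alpha subunit of beta-hexosaminidase, had 22.8 and 24.6 CPM under BSA against 42.5 and 41.2 CPM under PA, with close replicates.

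Other glycosidases had smaller differences. GLA, the alpha-galactosidase whose loss causes Fabry disease, had 70.7 and 49.7 CPM under BSA against 89.9 and 78.03 CPM under PA, and its PA mean passed 1.5-fold against BSA replicate 2 but not against BSA replicate 1. GUSB, NAGLU and AGA had log2 fold changes of 0.54 ± 0.26 (SE), 0.73 ± 0.32 (SE) and 0.74 ± 0.37 (SE), and HYAL1 had 0.26 ± 0.23 (SE).

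Sulfatases remove sulfate groups from glycosaminoglycans and sulfolipids. SGSH, the sulfamidase of heparan sulfate breakdown, had 53.2 and 67.2 CPM under BSA against 157 and 174 CPM under PA (log2 fold change 1.46 ± 0.23 SE, edgeR adjusted p = 0.0703). Both PA libraries lay well above the higher BSA library. SUMF1, the enzyme of the endoplasmic reticulum that activates all sulfatases, had 9.98 and 9.66 CPM under BSA against 23.8 and 23.96 CPM under PA, with close replicates in both groups. GALNS, a sulfatase for keratan and chondroitin sulfate, had 28.3 and 44.4 CPM under BSA against 68.1 and 71.8 CPM under PA. ARSA, ARSB and IDS were on the higher side by less (log2 fold changes of 0.19 ± 0.25 (SE), 0.55 ± 0.29 (SE) and 0.78 ± 0.39 (SE)), and ARSG was on the lower side (-0.48 ± 0.29 (SE)). IDS reads may be split with a pseudogene copy. HGSNAT, the membrane-bound acetyltransferase that works between SGSH and NAGLU in heparan sulfate breakdown, had 54.6 and 76.5 CPM under BSA against 60.8 and 56.1 CPM under PA, with overlapping groups.

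PSAP, the precursor of the saposins that help hydrolases reach glycosphingolipids, was the most highly expressed member per length. Its mean over the 4 libraries was 479 FPKM, the authors' values scaled to gene length, followed by CD63 with 119, LAPTM4B with 58.4, LAMP1 with 54.9 and CLTB with 53.2. In CPM, PSAP stood at 524 and 487 CPM in the BSA libraries and 2518 and 2535 CPM in the PA libraries. The replicates lay close together and the groups far apart (506 ± 26.3 CPM under BSA and 2526 ± 11.8 CPM under PA, SD, n = 2; log2 fold change 2.32 ± 0.25 SE, edgeR adjusted p = 0.0589; chromosome 10, 71816298 to 71851251, minus strand). GM2A, the activator that presents ganglioside to beta-hexosaminidase, had 14.7 and 10.4 CPM under BSA against 25.1 and 27.2 CPM under PA.

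Other hydrolases of lipids, phosphates and nucleic acids were also higher. PLA2G15, a lysosomal phospholipase A2, stood at 17.2 and 15.96 CPM under BSA against 59.4 and 74.6 CPM under PA (log2 fold change 2.01 ± 0.26 SE, edgeR adjusted p = 0.0617). ACP2, an acid phosphatase, had 34.9 and 37.1 CPM under BSA against 98.4 and 96.1 CPM under PA (log2 fold change 1.43 ± 0.21 SE, edgeR adjusted p = 0.0689), and DNASE2, the acid DNase, had 34.9 and 37.98 CPM under BSA against 74.1 and 81.8 CPM under PA. In these 3 genes the groups did not overlap (background 28.9% with PA higher), and the BSA libraries lay within 1.5-fold of each other. LIPA, which hydrolyses cholesteryl esters and triglycerides, depended on the BSA library, at 29.4 and 9.88 CPM under BSA against 38.8 and 34.5 CPM under PA. Its annotated span overlaps interferon-induced IFIT genes on the opposite strand, of which IFIT1 had 3323 and 1670 counts under BSA and 543 and 291 under PA. The use of strand in counting is not given in the sources used here. ACP5 stayed under 1 CPM, and PSAPL1 did not pass the filter.

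**Figure D3:**
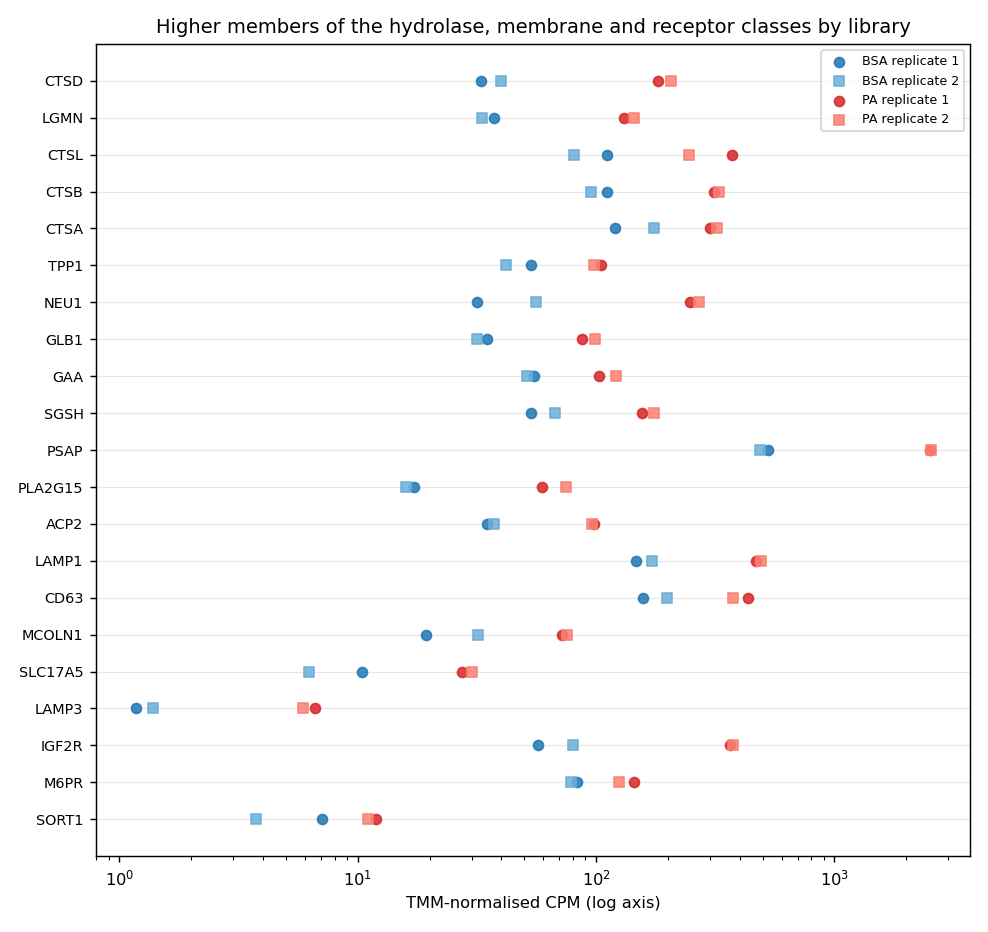
TMM-normalised CPM (x axis, log scale) of 21 lysosomal genes (y axis) in each library, with BSA in blue and PA in red, circles for replicate 1 and squares for replicate 2. The genes were picked for the plot because they were higher, and for each of them both PA libraries lie to the right of both BSA libraries, and PSAP is highest at 487 to 2535 CPM.

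Among the membrane proteins, 17 of 21 tested genes had a PA mean above each BSA library (background 32.9%). LAMP1, a heavily glycosylated protein that makes up much of the lysosomal membrane, stood at 147 and 171 CPM in the BSA libraries and 467 and 492 CPM in the PA libraries (log2 fold change 1.59 ± 0.21 SE, edgeR adjusted p = 0.0635; chromosome 13, 113297239 to 113323672, plus strand). Its relative LAMP2 depended on the BSA library. It had 66.7 and 18 CPM under BSA against 71.9 and 80.8 CPM under PA, so that the PA mean was 1.14-fold and 4.15-fold above BSA replicates 1 and 2. LAMP3, a family member best known from dendritic cells and as an interferon- and stress-responsive gene, rests on few reads, at 1.17 and 1.38 CPM under BSA against 6.603 and 5.92 CPM under PA (log2 fold change 2.29 ± 0.34 SE, edgeR adjusted p = 0.0689), which corresponds to 35 and 44 counts under BSA and 192 and 136 under PA. CD63, a tetraspanin of late endosomes and lysosomes, had 157 and 198 CPM under BSA against 432 and 377 CPM under PA (log2 fold change 1.19 ± 0.23 SE, edgeR adjusted p = 0.0857).

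Channels and transporters followed. MCOLN1, the calcium channel of the lysosomal membrane, stood at 19.4 and 31.9 CPM under BSA against 72.3 and 75.2 CPM under PA (log2 fold change 1.52 ± 0.32 SE, edgeR adjusted p = 0.0909). PNPLA6, which overlaps MCOLN1 on the same strand, had 1100 and 1321 counts under BSA and 3522 and 2715 under PA, so that reads in the shared part cannot be assigned with certainty. SLC17A5, which exports sialic acid, had 10.4 and 6.24 CPM under BSA against 27.3 and 30.1 CPM under PA (log2 fold change 1.79 ± 0.37 SE, edgeR adjusted p = 0.0887). SLC11A2, an iron transporter of endosomes, had 57.9 and 32.5 CPM under BSA against 102 and 88.8 CPM under PA, and ENTPD4, a nucleotide phosphohydrolase of Golgi and lysosome membranes, had 43.8 and 42.7 CPM under BSA against 82.1 and 83.9 CPM under PA, with close replicates. LOXL2 overlaps ENTPD4 on the same strand, with 3030 and 2750 counts under BSA and 6850 and 5995 under PA, beside 1309 and 1360 counts under BSA and 2386 and 1928 under PA for ENTPD4, so that its own count is uncertain. CLN3, mutated in juvenile neuronal ceroid lipofuscinosis, was higher in both settings at a low level, 1.24 and 1.47 CPM under BSA against 3.65 and 2.48 CPM under PA.

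For several membrane proteins the comparison turned on the BSA library. SCARB2, an abundant glycoprotein of the lysosomal membrane, had 49.5 and 20.7 CPM under BSA against 51.1 and 51.7 CPM under PA. LAPTM4A had 75.7 and 24.6 CPM under BSA against 71.01 and 80.2 CPM under PA, and its relative LAPTM4B 204 and 116 CPM under BSA against 195 and 234 CPM under PA. In all 3 genes the PA values lay near BSA replicate 1 and above BSA replicate 2. CTNS, the cystine exporter, showed the opposite arrangement, with 24.4 and 50.1 CPM under BSA against 66.4 and 57.3 CPM under PA. CD164, a sialomucin, and SLC11A1, a metal transporter of phagocytes, had log2 fold changes of -0.19 ± 0.38 (SE) and -0.16 ± 0.32 (SE). ABCA2, ABCB9, LITAF, MFSD8 and LAPTM5 had 0.63 ± 0.23 (SE), 0.50 ± 0.36 (SE), 0.36 ± 0.23 (SE), 0.42 ± 0.37 (SE) and 0.25 ± 0.39 (SE). CD68, a phagocyte-associated membrane protein, did not pass the filter.

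The receptors that sort hydrolases were led by IGF2R, the large mannose-6-phosphate receptor, which also binds insulin-like growth factor 2. It stood at 57.1 and 80.1 CPM in the BSA libraries and 366 and 374 CPM in the PA libraries (log2 fold change 2.43 ± 0.26 SE, edgeR adjusted p = 0.0589; chromosome 6, 159969082 to 160113507, plus strand). The PA libraries agreed closely with each other and were 6.43-fold and 4.599-fold above BSA replicates 1 and 2 as a mean. M6PR, the smaller receptor, differed by less, with 83.3 and 78.5 CPM under BSA against 144 and 125 CPM under PA (log2 fold change 0.73 ± 0.20 SE, edgeR adjusted p = 0.134). SORT1, a receptor that sorts some hydrolases without the mannose-6-phosphate tag, was low, with 7.096 and 3.73 CPM under BSA against 11.97 and 11.1 CPM under PA. Of the tagging enzymes, NAGPA, which uncovers the tag, had 20.3 and 23.6 CPM under BSA against 34.8 and 34.97 CPM under PA. The subunits of the phosphotransferase that adds the tag went apart. GNPTAB, its catalytic subunit gene, had 49.3 and 17.9 CPM under BSA against 21.2 and 19.96 CPM under PA, and GNPTG, its gamma subunit gene, had 58.5 and 90.9 CPM under BSA against 97.01 and 96.2 CPM under PA. For both, the PA values lay close to BSA replicate 2 and away from BSA replicate 1.

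The sorting adaptors and clathrin, which build the carriers, had counts near those of all genes. Of 26 genes tested, 10 had a PA mean above each BSA library (background 32.9%), 7 below each (background 34.6%), and 9 between them. The median log2 fold change was 0.27 for the 8 subunits of AP-1, -0.68 for the 7 of AP-3, -0.36 for the 4 of AP-4, 0.24 for the 3 GGA adaptors and -0.22 for the 4 clathrin genes. For AP-3 the medians against BSA replicates 1 and 2 singly were -0.87 and -0.08. AP1M2, the mu subunit of epithelial AP-1, had the largest difference of the class, with 10.7 and 16.5 CPM under BSA against 46.98 and 41.97 CPM under PA (log2 fold change 1.71 ± 0.33 SE, edgeR adjusted p = 0.085). AP1S3, a small sigma subunit, was also higher in both settings, with 17.1 and 13.1 CPM under BSA against 24.2 and 28.6 CPM under PA. Another sigma subunit, AP1S2, was lower, at 14.2 and 4.83 CPM under BSA against 3.44 and 2.83 CPM under PA, by a factor that depended on the BSA library. The log2 fold changes of the other 23 adaptor and clathrin genes lay between -0.90 and 0.69.

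The core subunits of these coats illustrate the spread between the BSA libraries. CLTC, the clathrin heavy chain gene, stood at 490.2 and 194 CPM in the BSA libraries and 215 and 201 CPM in the PA libraries. BSA replicate 1 stood apart, and the other 3 libraries lay together. AP1G1, the large gamma subunit of AP-1, had 104 and 51.6 CPM under BSA against 62.5 and 47.97 CPM under PA, and AP3B1, a large subunit of AP-3, had 76.01 and 22.5 CPM under BSA against 27.4 and 25.4 CPM under PA, in the same arrangement. AP3D1, the other large subunit of AP-3, had 149 and 275 CPM under BSA against 329 and 338 CPM under PA, with BSA replicate 1 lowest. Without BSA replicate 1 the log2 fold changes of CLTC and AP1G1 were 0.12 and 0.12, against -0.72 and -0.50 in all libraries.

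**Figure D4:**
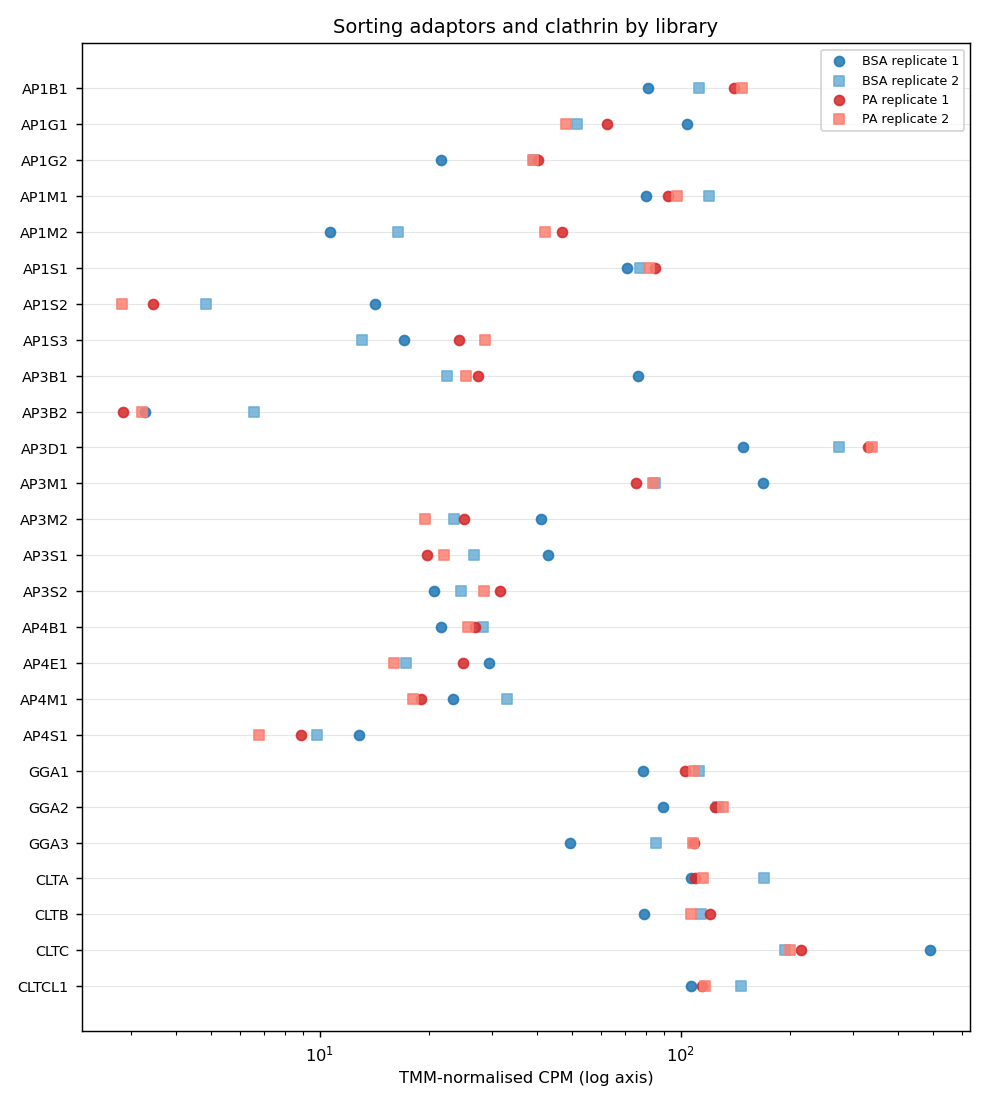
TMM-normalised CPM (x axis, log scale) of the 26 sorting adaptor and clathrin genes (y axis) in each library, with BSA in blue and PA in red, circles for replicate 1 and squares for replicate 2. In CLTC, BSA replicate 1 at 490.2 CPM stands apart from the other 3 libraries at 194 to 215 CPM, whereas in AP1M2 both PA libraries lie above both BSA libraries.

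The 8 genes outside the class lists had a median log2 fold change of -0.29 over the 7 tested. HYAL3, a member of the hyaluronidase family, had the largest difference on the lower side in both settings, at 24.4 and 41.8 CPM under BSA against 12.2 and 10.6 CPM under PA (log2 fold change -1.53 ± 0.37 SE, edgeR adjusted p = 0.11). IFRD2 and NAA80 overlap it on the same strand, with 3987 and 5707 counts and 578 and 676 counts under BSA, and 4079 and 3485 and 1107 and 1097 under PA, so that its own count is uncertain. HYAL2 had 25.2 and 26.7 CPM under BSA against 33.5 and 38.97 CPM under PA, and TUSC2, which overlaps it on the same strand, had 737 and 1144 counts under BSA and 1283 and 1080 under PA. FUCA2, a fucosidase, had 41.5 and 23.6 CPM under BSA against 58.1 and 39.1 CPM under PA. DMXL1 and DMXL2, large proteins that act with the proton pump, went opposite ways against the BSA libraries. DMXL1 had 36.1 and 6.59 CPM under BSA against 10.7 and 11.5 CPM under PA, which gave log2 ratios of -1.65 and 0.71 against BSA replicates 1 and 2, and DMXL2 had 28.9 and 9.22 CPM under BSA against 14.96 and 16.1 CPM under PA, with -0.87 and 0.72. NCOA7 and WDR7, which are also linked to the pump, had log2 fold changes of -0.59 ± 0.23 (SE) and -0.01 ± 0.30 (SE). The gene listed only by the identifier ENSG00000261832 did not pass the filter.

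The ratio between the BSA libraries followed the GC content of the members' transcripts. In the 29 tested members under 45% GC BSA replicate 2 had a median of -0.82 relative to BSA replicate 1 on the log2 scale. The 40 members from 45% to 55% had -0.02, and the 37 above had 0.46. The median log2 ratio of the PA mean was 0.05, 0.67 and 0.82 against BSA replicate 1, and 0.68, 0.92 and 0.41 against BSA replicate 2, in the same order. Higher in both settings were 5, 20 and 13 of them. The share over all genes tested was 12.5%, and it was not split by GC content. With the GC and length trend removed, the median log2 fold change was 0.56 over all tested members, 0.92 for proteases, 0.77 for glycosidases, 0.89 for membrane proteins and -0.07 for sorting adaptors. The part of GC content in any single gene's value was not tested.

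As a description, the CLEAR element was looked for in promoters, 250 bases before to 50 after each RefSeq start (GRCh38.p14). Of the 112 members 84 matched a promoter entry by symbol. The E-box CACGTG, the 8-letter form TCACGTGA and a longer form, TCACGTGA with G before and C after it, each read the same on both strands, and each shorter one lies within the longer. TCACGTGA was found in 10 of the 84 (11.9%), against 1.18% of all 27305 genes with promoters and 2.06% of the 12011 that were tested. It lay in 7 of 28 members higher in both settings (25%) and in 3 of 52 other tested members (5.77%). The 7 were CTSA, GAA, GALNS, MCOLN1, LAMP1, CLN3 and IGF2R, and the 3 were GNPTG, NAGPA and CD164. The longer form was found in 5 of the 84 (5.95%, against 0.421% of all and 0.833% of those tested), and CACGTG in 22 (26.2%, against 8.77% and 12.2%). None of 21 sorting adaptors with a promoter entry held TCACGTGA, where the share of genes tested was 2.06%. Most of these adaptors were among the 52 other tested members, so the 2 sets compared above differ in their classes. The longer form was in 2 of the 6 receptors and tagging enzymes, 0 of 11 proteases and 0 of 7 other hydrolases and activators. These are matches of letters, not shown sites, and their part in the members' values was not tested.

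The stretches that hold the matches are shown for 4 members that were higher in both settings (LAMP1, MCOLN1, GAA and IGF2R) and 2 that were not (GNPTG and CD164), with TCACGTGA or its longer form in capitals, 5′ to 3′ on the gene's strand. They lie at chr13:113297192-113297262, plus strand (LAMP1), chr19:7522564-7522634, plus strand (MCOLN1), chr17:80101486-80101574, plus strand (GAA), chr6:159968931-159969078, plus strand (IGF2R), chr16:1351900-1351959, plus strand (GNPTG) and chr6:109382477-109382520, minus strand (CD164).
LAMP1: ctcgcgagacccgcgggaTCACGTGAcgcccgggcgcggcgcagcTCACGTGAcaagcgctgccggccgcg
MCOLN1: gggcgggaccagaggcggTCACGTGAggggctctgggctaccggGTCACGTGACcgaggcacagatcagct
GAA: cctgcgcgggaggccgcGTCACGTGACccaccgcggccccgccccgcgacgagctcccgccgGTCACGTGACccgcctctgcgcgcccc
IGF2R: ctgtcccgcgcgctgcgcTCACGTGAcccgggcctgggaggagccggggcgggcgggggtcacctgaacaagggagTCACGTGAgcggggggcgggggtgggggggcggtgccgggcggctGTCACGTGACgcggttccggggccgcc
GNPTG: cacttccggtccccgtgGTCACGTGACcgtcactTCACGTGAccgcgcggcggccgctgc
CD164: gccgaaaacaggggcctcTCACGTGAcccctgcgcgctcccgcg
The first match starts 29 bases before the gene start in LAMP1, 42 in MCOLN1, 77 in GAA, 133 in IGF2R, 13 in GNPTG and 35 in CD164. LAMP1, MCOLN1, GAA and GNPTG held 2 matches each and IGF2R held 3. CD164 held 1 match and had 77.96 and 38.7 CPM under BSA against 52.5 and 49.7 CPM under PA. The number of matches did not sort the members, since CTSA, GALNS and CLN3 held 1 match each and were higher in both settings, whereas GNPTG held 2 and was not.

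Some members are best known from phagocytes, so markers of other cell types were read beside them. The summed level of the macrophage list was 5.36 and 8.28 CPM under BSA and 23.1 and 25.1 CPM under PA, over the 4 of 7 listed genes that had values. CSF1R made up most of it, with 4.42 and 5.68 CPM under BSA and 18.7 and 20.8 CPM under PA. ITGAM had 0.569 and 0.721 against 3.1 and 2.74 CPM, CD14 stayed under 2 CPM, and CD163 was at 0 in 3 libraries and at 0.0314 CPM in BSA replicate 2. CD68, LAPTM5 and CTSS, members with phagocyte expression, stayed under 4 CPM in every library. The endothelial list summed to 0.268 and 0.533 CPM under BSA and 3.47 and 3.22 CPM under PA, and the fibroblast list to 120 and 114.6 against 126 and 161 CPM, nearly all of it COL1A1. The part of these markers, and of MUC16 and KRT8 given above, in the members' values was not tested.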

How the data were processed

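Libraries of 2 BSA and 2 PA samples of TOV-112D were made with a NEBNext Ultra kit, per the labels' protocols. HISAT2, StringTie and SAMtools are listed, with hg38, per the submitters' processing notes. Strand use, counting settings and annotation release: not given in the sources used here. For each gene the authors deposited raw read counts and, beside them, FPKM, which the authors scaled by length and depth.

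The test was that of edgeR 4.0.16 (R 4.3.3) on the counts (TMM, filterByExpr, quasi-likelihood F test, Benjamini-Hochberg at 0.05), over 17449 genes. SEs are the log2 fold change over the square root of F. Alternatives used DESeq2 1.42.0, limma 3.58.1 (voom, and log2(FPKM + 1) or log2(FPKM + 0.1) for genes with a mean FPKM of at least 0.5), other factors and filters, omission of each library in turn, a replicate block, and removal of a loess surface (span 0.3) fitted to log2 length and GC content, both taken from the longest transcript in GENCODE 29. That trend covered 16596 genes (95.1%). The procedure was also run on simulated counts. There all libraries shared a common spread for each gene, unlike the BSA and PA libraries here. That run therefore cannot show how the procedure performs on these data. At these depths (23722074 to 31695944 counts) a low level rests on few reads.

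The members and lists were chosen with earlier results of these data known. Members named with values were those with a mean of at least 1 CPM past 1.5-fold against each BSA library (up to 6 per class and direction), a fixed list of lysosomal genes, members past 1.5-fold in opposite ways, and those under 1 CPM. Further members were named after their values were seen. Some members that the rule names are not reported here. The classes were fixed by symbol. Figures were drawn with matplotlib 3.10.9.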

Additional observations from a re-analysis of the deposited data

How the results depend on the processing

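Counts of called members changed with the fit. From 0 higher and 0 lower, they were 21 and 1 without a filter, 25 and 1 with DESeq2, 28 and 1 after removing the GC and length trend, and over the fits that leave out a library 0 to 66 higher and 0 to 16 lower. RLE or upper-quartile factors, a filter of 1 CPM in 2 libraries, limma-voom and limma on FPKM called 0. With a replicate block 13 were called higher and 0 lower. Libraries of the same number did not deviate together (correlation 0.00844). With 2 libraries a group this sets only the BSA difference against the PA difference, so it cannot decide on pairing. The libraries are not shown to be paired. The protease median, 0.92, was 0.77 without a filter, 1.06 with the filter of 1 CPM, 0.78 with DESeq2, 1.03 with limma-voom, 1.02 with the replicate block, 0.99 on log2(FPKM + 1) and 1.44 on log2(FPKM + 0.1), and ran from 0.89 to 1.10 over the libraries left out. The glycosidase median was 0.70 on log2(FPKM + 1). Over the libraries left out, the membrane median ran from 0.65 to 1.02 and the adaptor median from -0.04 to 0.19. The adaptor median was 0.02 without BSA replicate 1 and 0.19 without BSA replicate 2. In the other alternatives the membrane median ran from 0.61 to 0.89 and the adaptor median from -0.13 to -0.07. The median of all members stayed between 0.49 and 0.68 in every alternative run. Counts against each BSA library singly fell from 38 to 23 higher and from 2 to 1 lower at 2-fold. With 1 library left out there were 38 to 54 higher and 3 to 15 lower, where leaving out a BSA library was chosen after seeing the data. The log2 fold changes of 47 members were followed singly through the fits. Those of AP1G1 (-0.90 to 0.12 over the libraries left out), CLTC (-1.23 to 0.12), DMXL1 (-1.69 to 0.78), DMXL2 (-0.88 to 0.77) and GNPTAB (-1.25 to 0.22) changed sign without BSA replicate 1. That of DMXL2 (0.33) also changed sign with the trend removed. Members outside the 47 changed sign too, such as AP3B1 (-0.90 to 0.25) and CD164 (-0.19 to 0.42) without BSA replicate 1. HGSNAT (-0.16 to 0.11) did so without BSA replicate 2. The causes were not tested.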

Other observations

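Regulators of lysosomal genes, a list of 21 genes that are not members, showed smaller values. Of the 19 tested, 0 passed edgeR's test (background 0% in each direction). By that test 1 had an unadjusted p under 0.05 (background 13.1% higher and 11.2% lower). The median log2 fold change was 0.34. Against BSA replicates 1 and 2 singly the median was 0.20 and 0.11. The PA mean was above each BSA library in 10 (background 32.9%) and below each in 6 (background 34.6%). Among the 6, LAMTOR3, a subunit of the Ragulator complex, had 20.2 and 6.05 against 5.54 and 4.57 CPM (log2 fold change -1.37, edgeR adjusted p = 0.25), and LGALS8, a galectin that binds damaged lysosomes, had 33.3 and 30.3 against 20.6 and 21.2 CPM (log2 fold change -0.61, edgeR adjusted p = 0.232). TFEB, a transcription factor that binds the CLEAR element, stood at 28 and 24 CPM in the BSA libraries and 33.6 and 36.2 CPM in the PA libraries. TFE3, a related factor, had 152 and 265 CPM under BSA and 279 and 293 CPM under PA, and MITF, another, 70.3 and 40.1 against 77.1 and 71.9 CPM. Past 1.5-fold against each BSA library was 1 of the 19 tested, on the higher side (background 12.5% higher and 9.14% lower). This was VPS18, a subunit of the tethering complexes for fusion with lysosomes (21.8 and 38.6 against 67.2 and 63.6 CPM). VPS18 was 1.11 higher on the log2 scale (edgeR unadjusted p = 0.0229, edgeR adjusted p = 0.154). FLCN, which acts upstream of TFEB at the lysosome, had 36.95 CPM in BSA replicate 1 and 112 to 122 CPM in the other 3 libraries.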
